A study of Homo sapiens with 2 samples.

Results

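The genes described here make cholesterol and fatty acids, or set how much of them is made. They are 32 genes taken from a fixed list by gene symbol, and every probe set with 1 symbol for such a gene was used. Of the 32, 30 had such a probe set among the 18132 genes measured, and 26 passed the filter on low values. CYP51A1, the lanosterol demethylase, had only probe sets that also name LRRD1, and FDFT1, squalene synthase, was not analysed here. Expression was measured on Affymetrix arrays in HCT116, a human colorectal carcinoma cell line grown in DMEM with 10% fetal bovine serum. One group was HCT116 labelled as SUN2 knockdown, with the treatment shSUN2-1, and the other was the HCT116 control, with the treatment Scr. SUN2 encodes an inner nuclear membrane protein that links the nucleus to the cytoskeleton. Each group held 1 array, and the knockdown came from 1 construct, so no value has a replicate and no difference could be tested against the spread between cultures.

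Cholesterol is built from acetyl-CoA through mevalonate, farnesyl diphosphate and squalene to lanosterol, which a chain of sterol enzymes converts to cholesterol. Fatty acid synthesis starts from the same acetyl-CoA. Both routes are controlled by the SREBP transcription factors, which are made as precursors in the endoplasmic reticulum membrane. When sterols are scarce, the escort protein SCAP carries them to the Golgi, where proteases free the active factor, and INSIG proteins hold SCAP back when sterols are plentiful. Serum lipoproteins are a known source of sterol for cultured cells, and colorectal carcinoma cells are known to make fatty acids of their own.

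The values are array intensities per probe set, not logged. Differences are given as the SUN2 knockdown array minus the control array on the scale log2(intensity + 16), and a gene is represented by its brightest probe set unless stated. The filter kept genes whose mean over both arrays reached 108.1, the middle intensity among non-control probe sets. The median intensity was 107.1 on the knockdown array and 108.8 on the control array. SUN2 itself read 407.3 in the knockdown and 497.7 in the control (log2 difference -0.28), and all 6 of its probe sets were lower in the knockdown. The others differed by -0.36, -0.39, -0.07, -0.10 and -0.05, and those at -0.10 and -0.05 lay below the filter. The background controls, which match no human transcript, were lower in the knockdown in 20 of 23 cases, by up to 0.33 on the log2 scale for the one richest in G and C. Of the 8 markers of intestinal epithelium, 6 passed the filter and all 6 were higher in the knockdown (5 of 6 after quantile normalization or loess), with KRT19, the brightest, at 3045.2 in the knockdown and 2619.1 in the control. VIL1 and CDH17 did not pass and were lower, by -0.12 and -0.09. By the median of all probe sets, 5 of the 8 were higher and 3 lower. Of 31 markers of hepatocytes, adipocytes, fibroblasts, endothelium and immune cells, 13 passed and all 13 were lower, by 0.03 to 0.13 on the log2 scale. Their summed intensity over the 31 was 3806 in the knockdown and 4045 in the control. None read 0, and the dimmest was at 33.6 in the knockdown and 34.7 in the control. The brightest of each list were APOA1, ADIPOQ, PDGFRB, PECAM1 and CD68, at 531.2, 183.3, 230.1, 212.6 and 137.8 in the knockdown, against 572.9, 188.7, 254.1, 224.1 and 148.4 in the control. ALB, which defines hepatocytes, read 59.98 in the knockdown and 60.7 in the control. The part of these shifts in the differences below was not tested. On the control array the background controls ranged from 31.2 to 1425.0, which takes in all 31 markers of other cell types. Whether those markers read only background was not tested. In RNA from whole cultures of this cell line, fewer cells of a kind and less RNA per cell cannot be told apart.

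The synthesis genes differed little between the arrays, and the clearest difference was a lower SCD, the stearoyl-CoA desaturase that makes monounsaturated fatty acids. SCD was 1.29-fold lower in the SUN2 knockdown (log2 difference -0.36), and all 4 of its probe sets were lower. ME1, the malic enzyme that supplies NADPH, was 1.24-fold higher (0.31) on 1 of 2 probe sets. No sterol enzyme differed by 1.2-fold. SREBF2 and INSIG1, 2 of the 4 SREBP regulators, were lower by 0.17 and 0.15 with all of their probe sets in that direction. The other 2 were higher, SCAP by 0.07 and 0.04 on its 2 probe sets and SREBF1 by 0.16 on 1 of 3.

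Few members passed a fold threshold in either direction, and their counts are given beside the shares over all genes. A fold of 1.2 was used as the threshold, since it is a log2 difference of 0.26 against an SD of 0.09 between probe sets of the same gene, which covers probe error only. Of the 26 members past the filter, 1 was at least 1.2-fold higher (ME1), where 5.95% of all 12220 genes past the filter were. Likewise 1 was at least 1.2-fold lower (SCD), where 0.884% of all genes were. None of the 26 reached 1.5-fold in either direction, where 0.36% of all genes did. A single gene among 26 in each direction gives no result about the group. A total of 17 of the 26 members was lower and 9 were higher, against 50.2% of all genes lower. The median member difference was -0.04, with quartiles of -0.13 and 0.06, and the median of all genes was -0.0009, with quartiles of -0.08 and 0.11. The split moved with the scaling between arrays: after quantile normalization or loess 20 members were lower and 6 higher, against 58.8% and 53.6% of all genes lower, and after median centring 16 were lower and 10 higher, against 44.7%. EBP, SCAP and ACLY changed sign in quantile normalization and in loess, and ACAT2 in median centring. With no replicate, a majority of small negative differences cannot be told apart from a technical difference between the 2 arrays.

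**Figure D1:**
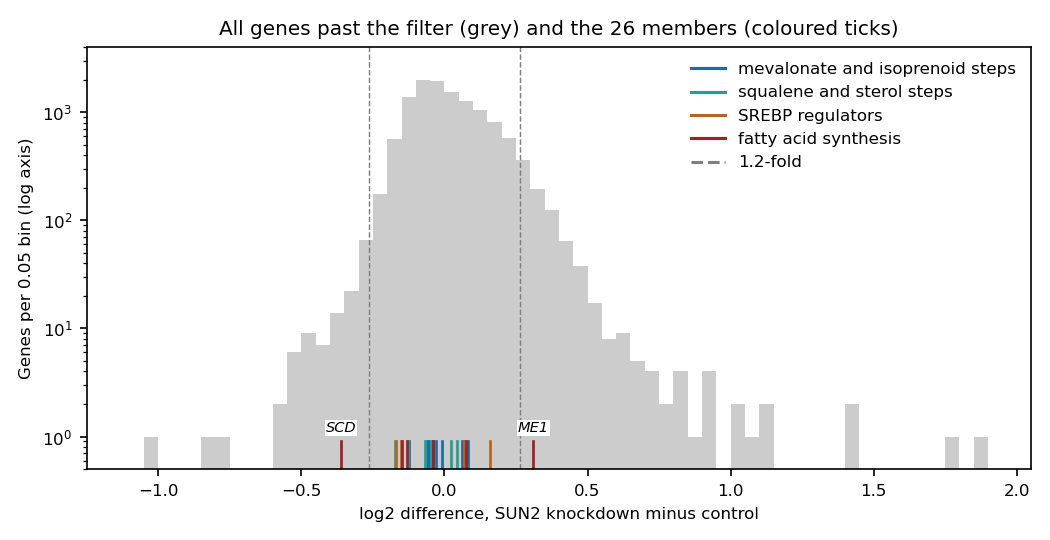
Log2 differences (SUN2 knockdown minus control, horizontal axis) of all 12220 genes past the filter (grey, number per bin on a log axis), with the 26 members as coloured ticks below and dashed lines at 1.2-fold. The members lie between -0.36 and 0.31, with SCD in the lower tail, where 38 genes were lower still, and ME1 in the upper tail, where 433 were higher.

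SCD was measured by 4 probe sets. The brightest read 2343.2 in the knockdown and 3016.0 in the control, 77.7% of control. The others read 305.1, 196.5 and 88.3 in the knockdown, against 384.7, 228.5 and 108.3 in the control, and the dimmest of them lay below the filter. The log2 differences were -0.36, -0.32, -0.20 and -0.25, so every probe set was lower by an amount of the same order. The difference of the brightest was 3.83 times the SD between probe sets of a gene. A total of 38 of the 12220 genes had a lower difference. Among the 247 genes within 0.5 log2 units of SCD in mean intensity, SCD included, the median difference was 0.11 and 0 were lower than SCD. This window was chosen after the SCD value was seen. All 4 SCD probe sets are of the _s_at or _x_at class, which the array design marks as matching more than 1 transcript, so SCD has no value without these classes. SCD has a known processed pseudogene, and the assignment to SCD alone is therefore uncertain. The intensity differed by -673 units, against -297 for the background control with 25 G or C bases, which had the lowest log2 difference of the controls at -0.33. The GC content of the SCD probes is not known here, and its part was not tested.

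**Figure D2:**
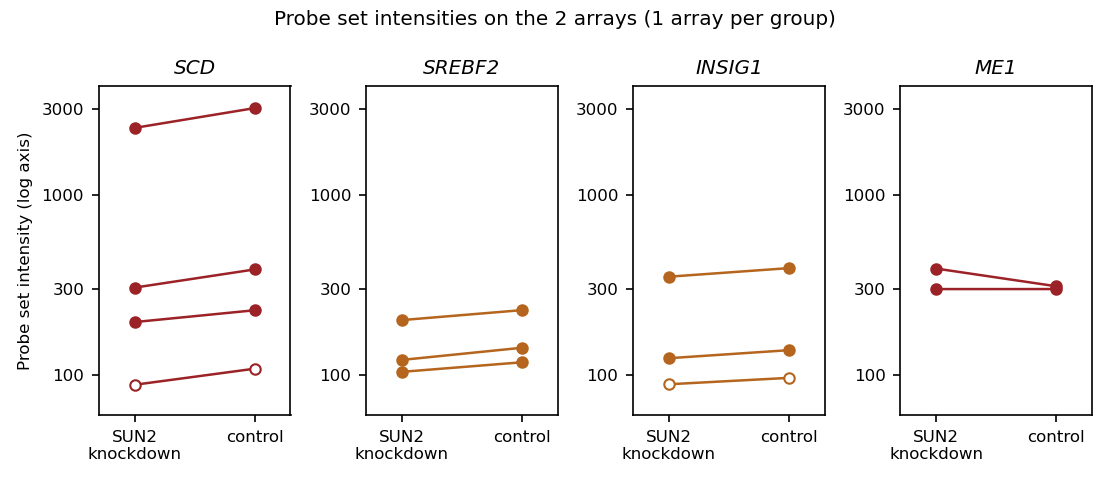
Probe set intensities (log axis) of SCD, SREBF2, INSIG1 and ME1 on the SUN2 knockdown array (left in each panel) and the control array (right), 1 line per probe set, with open points below the filter. All lines of SCD, SREBF2 and INSIG1 run upward to the control, whereas 1 ME1 probe set runs downward and the other is level at about 299.

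The other fatty acid synthesis enzymes differed less. ATP citrate lyase (ACLY), which makes cytosolic acetyl-CoA from citrate, read 1523.1 in the knockdown and 1446.5 in the control (0.07), and its second probe set agreed in direction at 0.09. ACSS2, which makes acetyl-CoA from acetate, differed by -0.04. Acetyl-CoA carboxylase ACACA, the committed step, read 555.0 in the knockdown and 616.4 in the control (-0.15), but its 2 dimmer probe sets, both below the filter, differed by 0.05 and -0.02. Its paralog ACACB differed by -0.04 on a value near the filter. Fatty acid synthase (FASN) read 309.7 in the knockdown and 340.5 in the control (-0.13) on its only probe set. Of the 7 genes of this group, 5 were lower and 2 were higher, with a median of -0.04. ME1 was at the other end from SCD. Its brightest probe set read 389.0 in the knockdown and 310.5 in the control, whereas the second read 299.4 on the knockdown array and 299.5 on the control array, a difference of -0.0003. The 2 ME1 probe sets therefore disagree by 3.29 times the SD between probe sets of a gene, and their mean of 0.16 does not reach 1.2-fold. A total of 433 genes had a higher difference than the brighter one.

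The SREBP regulators split into 2 lower and 2 higher genes. SREBF2, which encodes the SREBP that mainly drives sterol synthesis, read 201.6, 121.2 and 104.1 on its 3 probe sets in the knockdown, against 228.8, 141.5 and 117.6 in the control. All 3 were lower, by -0.17, -0.20 and -0.15. SREBF1, which encodes the SREBP that mainly drives fatty acid synthesis, read 330.8 in the knockdown and 294.8 in the control on its brightest probe set (0.16). Its second probe set read 271.9 in the knockdown and 273.9 in the control (-0.01), and the third, below the filter, differed by -0.08. SREBF1 therefore has no common direction over its probe sets. INSIG1, itself a known SREBP target, read 350.7, 123.9 and 88.8 in the knockdown, against 391.3, 137.3 and 96.4 in the control, with differences of -0.15, -0.13 and -0.10. SCAP read 770.2 in the knockdown and 734.0 in the control (0.07), and its other probe set differed by 0.04. The intensity of SREBF2 differed by -27.2 units and that of INSIG1 by -40.6. Background controls of similar brightness differed by -13.5 units (222.4 in the knockdown and 235.9 in the control) and -25.8 units (341.7 in the knockdown and 367.5 in the control). Brighter ones differed by -49.0 units or more. The GC content of the SREBF2 and INSIG1 probes is not known here, and whether background contributed was not tested.

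Agreement between probe sets can be set against that of all genes. Of the 17 members with 2 or more probe sets past the filter, 12 had all of them in the same direction, 7 lower and 5 higher, and 63.9% of the 5786 such genes on the arrays did so. In 4 of the 6 members with 3 or more, PMVK, TM7SF2, SREBF2 and SCD, all were lower, where 23% of the 2595 such genes were. For PMVK the 3 differences were between -0.03 and -0.01, far under the probe SD. All probe sets of TM7SF2 and SCD are of the _x_at or _s_at class. Over single probe sets, 36 of the 52 member probe sets past the filter were lower (69.2%), against 49.0% of all 22628 probe sets past the filter with 1 symbol. Probes can be common to several probe sets of a gene, which are therefore not independent.

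**Figure D3:**
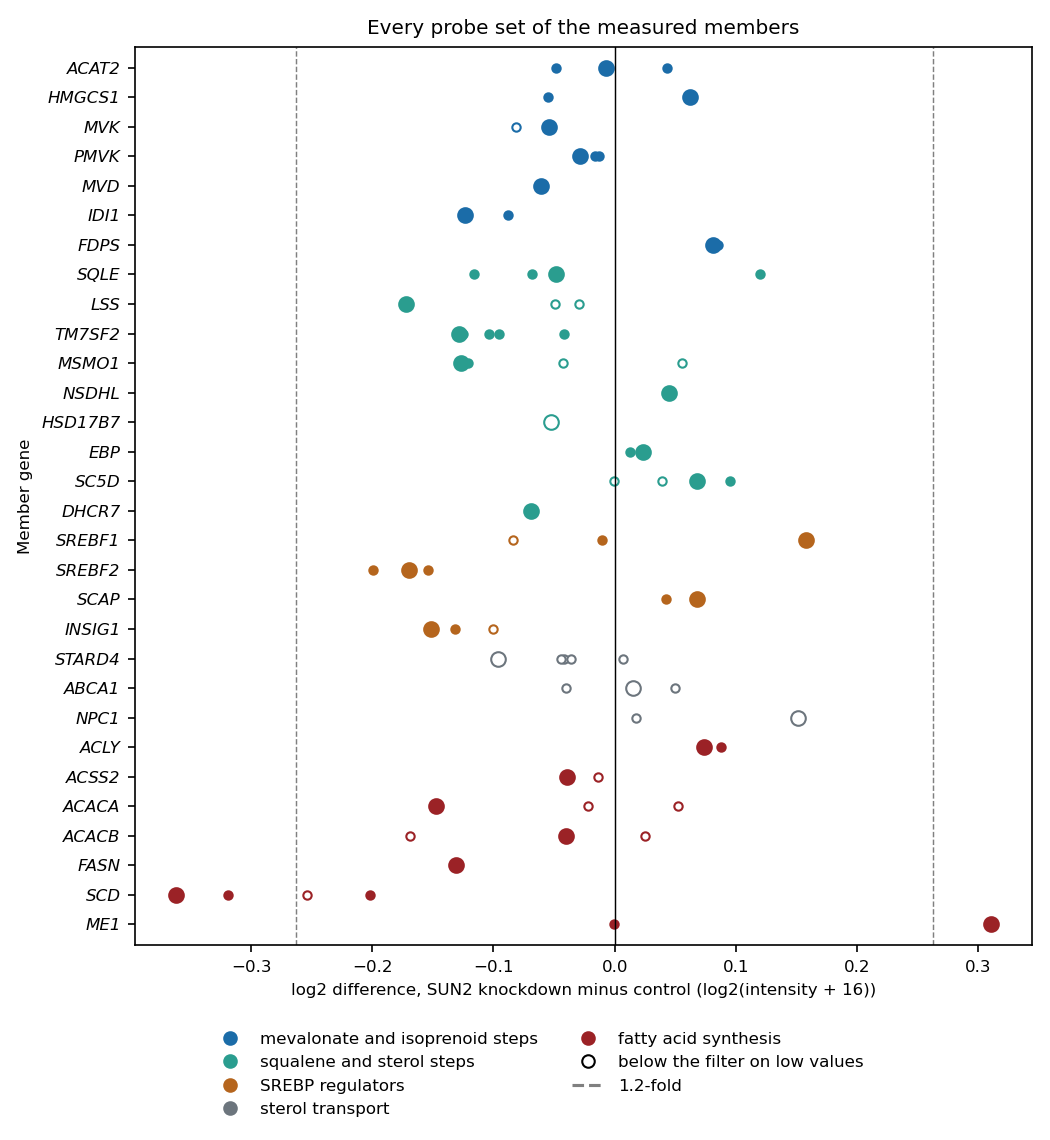
Log2 difference of every probe set (SUN2 knockdown minus control, horizontal axis) for the 30 measured members, coloured by role, with the brightest probe set of each gene as the larger point, open points below the filter and dashed lines at 1.2-fold. SCD alone has probe sets past the left line and ME1 alone one past the right line.

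The enzymes from acetyl-CoA to farnesyl diphosphate were nearly level. All 7 passed the filter, 5 were lower and 2 higher, with a median of -0.03. ACAT2, the thiolase that joins acetyl-CoA units, read 598.7 in the knockdown and 601.9 in the control (-0.01), with 3 probe sets from -0.05 to 0.04. HMGCS1, which makes HMG-CoA, read 184.5 in the knockdown and 176.0 in the control (0.06), and its second probe set went the other way at -0.06. The kinases MVK and PMVK differed by -0.05 and -0.03, and the decarboxylase MVD by -0.06. IDI1, the isopentenyl diphosphate isomerase, was the lowest of the group at 138.4 in the knockdown and 152.2 in the control (-0.12), and -0.09 on its second probe set. FDPS, which makes farnesyl diphosphate, was the highest at 431.7 in the knockdown and 407.2 in the control (0.08), with 0.09 on its second.

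Of the 9 squalene and sterol enzymes measured, 8 passed the filter, 5 of them lower and 3 higher, with a median of -0.06. Lanosterol synthase (LSS) was the lowest at 225.6 in the knockdown and 256.2 in the control (-0.17), on a probe set of the _x_at class, while its 2 dimmer probe sets below the filter differed by -0.03 and -0.05. TM7SF2, a sterol reductase, was lower on all 5 probe sets, from -0.13 to -0.04, with 385.4 in the knockdown and 422.7 in the control on the brightest. All 5 are of the _x_at or _s_at class, so TM7SF2 has no value without these classes. MSMO1, the methylsterol monooxygenase, read 298.1 in the knockdown and 326.9 in the control (-0.13), and -0.12 on its second probe set, while 2 dimmer ones below the filter differed by 0.06 and -0.04. Squalene epoxidase (SQLE) had 4 probe sets in both directions, from -0.12 to 0.12, with -0.05 on the brightest. DHCR7, the reductase of the last step, differed by -0.07 on an intensity of 111.3 in the knockdown and 117.5 in the control. NSDHL, which takes part in sterol demethylation, differed by 0.05 and the sterol isomerase EBP by 0.02. The desaturase SC5D was the highest at 289.5 in the knockdown and 275.5 in the control (0.07), with 0.10 on its second probe set. HSD17B7, a ketosterol reductase, lay below the filter at 76.4 in the knockdown and 79.8 in the control. The probe sets that name both CYP51A1 and LRRD1 read 818.1 and 90.8 in the knockdown, against 815.4 and 95.7 in the control, and give no value for CYP51A1 alone.

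The 3 sterol transport genes all lay below the filter. STARD4, which carries cholesterol between membranes, read 88.4 in the knockdown and 95.6 in the control. ABCA1, the cholesterol exporter that LXR receptors induce, read 62.6 in the knockdown and 61.7 in the control. NPC1, which releases cholesterol from lysosomes, read 90.2 in the knockdown and 79.6 in the control, a log2 difference of 0.15, and 0.02 on its other probe set. At these intensities background makes up an unknown share of the value, so a small change could not have been seen.

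The promoters show what the members share in sequence. They were read from RefSeq (GRCh38.p14) as windows of 250 bases before to 50 after each start, and 28 of the 32 members had at least 1, 38 windows in all. The motifs searched on both strands were TCACNCCA, the core of the sterol regulatory element, CCAAT, which NF-Y binds, GGGCGG, which Sp1 binds, and CACGTG, an E-box. CCAAT was found in 21 of the 28 member genes (75%), against 39.7% of the 27305 genes with a window and 42.4% of the 14425 of those measured on the arrays. GGGCGG was found in 27 of 28 (96.4%), against 65.7% of the measured genes. TCACNCCA was found in 4 of 28, MSMO1, ME1, MVK and SREBF2, or 14.3% against 4.91% of the measured genes. CACGTG was found in 5 of 28 (17.9%), against 10.9%. NF-Y and Sp1 are known partners of SREBP at sterol-responsive promoters, but a match is only a match of letters. Of the 4 genes with the sterol element core, 3 were lower in the knockdown, SREBF2 (-0.17), MSMO1 (-0.13) and MVK (-0.05). Among the 26 members past the filter 17 were lower, and 50.2% of all genes were, so 3 of 4 gives no result about the motif. The gene with the core that was higher was ME1 (0.31 on 1 of 2 probe sets), whose match begins 17 bases after the start.

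The 250 bases before the start are shown for the members with at least 2 probe sets past the filter, all lower by at least 0.12, and whose promoters lay in the table, SCD, SREBF2, INSIG1 and MSMO1, a choice made after their values were seen. Capitals mark the 4 motifs on either strand, and a motif that runs past the start is cut there. The windows are on the plus strand of GRCh38.p14, at chr10:100346983-100347232 for SCD, chr22:41832855-41833104 for SREBF2, chr7:155297628-155297877 for INSIG1 and chr4:165327419-165327668 for MSMO1.
SCD: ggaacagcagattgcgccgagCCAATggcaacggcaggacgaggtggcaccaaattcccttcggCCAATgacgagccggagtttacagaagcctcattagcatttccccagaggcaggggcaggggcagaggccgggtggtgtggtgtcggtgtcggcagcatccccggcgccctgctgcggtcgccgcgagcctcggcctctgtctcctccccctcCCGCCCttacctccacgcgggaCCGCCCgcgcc
SREBF2: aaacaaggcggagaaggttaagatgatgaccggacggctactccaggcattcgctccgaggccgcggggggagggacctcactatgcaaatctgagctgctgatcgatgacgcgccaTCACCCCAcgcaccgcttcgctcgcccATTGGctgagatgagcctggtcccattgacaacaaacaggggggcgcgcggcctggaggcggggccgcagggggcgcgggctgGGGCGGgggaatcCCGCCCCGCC
INSIG1: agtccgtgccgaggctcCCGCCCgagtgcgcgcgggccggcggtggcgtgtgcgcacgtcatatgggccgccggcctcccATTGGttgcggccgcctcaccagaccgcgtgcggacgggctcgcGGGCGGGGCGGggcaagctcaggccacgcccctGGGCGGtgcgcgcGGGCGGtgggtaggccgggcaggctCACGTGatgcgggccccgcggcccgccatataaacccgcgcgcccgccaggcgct
MSMO1: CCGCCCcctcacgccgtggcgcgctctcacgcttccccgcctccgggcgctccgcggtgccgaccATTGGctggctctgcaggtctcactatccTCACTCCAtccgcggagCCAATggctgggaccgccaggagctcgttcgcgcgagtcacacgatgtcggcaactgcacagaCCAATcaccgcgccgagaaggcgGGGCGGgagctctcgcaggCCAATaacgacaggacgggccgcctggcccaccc
SREBF2 holds TCACCCCA beginning 133 bases before the start and MSMO1 holds TCACTCCA beginning 156 bases before it. SCD holds no sterol element core but has 2 CCAAT boxes, SREBF2 has 1, and MSMO1 has 4 on the 2 strands. INSIG1 has 1 CCAAT box, the E-box CACGTG and 6 GGGCGG boxes in its window, 2 of which overlap and 1 of which lies after the start. All 4 genes hold CCAAT and GGGCGG, as do most members with a window, while the sterol element core is in 2 of the 4 and the E-box in INSIG1. The members with a window but no CCAAT were PMVK, CYP51A1, SREBF1, SCAP, ME1, NPC1 and ABCA1. PMVK was lower and the others except CYP51A1 were higher on the brightest probe set, where 9 of the 26 members past the filter were higher. SREBF1 and ME1 were higher on 1 probe set only, and SCAP turned lower after quantile normalization and after loess. NPC1 and ABCA1 lay below the filter. NSDHL, which was higher, held no GGGCGG. Any relation of these motifs to direction was not tested.

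Other genes of sterol and lipid metabolism were taken from 7 lists of 75 genes, of which 58 passed the filter. Of these 58, 5 were at least 1.2-fold higher, where 5.95% of all genes were, and 1 at least 1.2-fold lower, where 0.884% were. Both counts are near those shares. The 58 differences had a median of 0.02, which turned to -0.03 after quantile normalization and -0.01 after loess. Among partners of SREBP processing, SEC23A, a coat protein of the vesicles that leave the endoplasmic reticulum, was the largest at 693.5 in the knockdown and 489.2 in the control (0.49). It rested on 1 probe set past the filter, and the median over all of its probe sets was 0.08. Of the LXR receptors and targets, 4 passed the filter, 3 of them lower and 1 higher, with a median of -0.10, where 50.2% of all genes were lower. Without the filter 3 of the 6 measured were higher and 3 lower, with a median of 0.01. The higher one past the filter was LPCAT3, a phospholipid acyltransferase, at 508.4 in the knockdown and 402.4 in the control (0.33), with other probe sets down to -0.08. LPCAT3 was at 0.06 by the mean of its probe sets, -0.004 by their median, 0.002 without the _x_at and _s_at classes and 0.25 after quantile normalization, none of which reaches 1.2-fold. NPC2, the lysosomal partner of NPC1, was the gene past 1.2-fold on the lower side, at 1283 in the knockdown and 1612 in the control (-0.33), with 3 probe sets from -0.33 to -0.05. By the mean of these it was at -0.20, and by the median of all at -0.21, short of 1.2-fold.

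The isoprenoid branch, which leaves the pathway at farnesyl diphosphate towards protein prenylation, dolichol and ubiquinone, differed from the sterol branch in its count. All 8 of its genes past the filter were higher, with a median of 0.15, whereas 10 of the 15 enzymes from ACAT2 to DHCR7 were lower, with a median of -0.05. Of all 12220 genes past the filter 50.2% were lower, the share to set beside these counts and those of the lists below. PGGT1B, a prenyltransferase subunit, read 224.2 in the knockdown and 178.8 in the control (0.30), and NUS1, needed for dolichol synthesis, read 165.5 in the knockdown and 134.0 in the control (0.27). Neither reached 1.2-fold by the median of all probe sets (PGGT1B 0.14, NUS1 0.19) or with a pseudocount of 64 (0.25 and 0.21), NUS1 also not by the mean of its probe sets (0.23), and PGGT1B had 1 of 2 probe sets past the filter. The difference between the lists has no test, and the isoprenoid median lay between 0.12 and 0.17 under the alternatives, with 7 higher and 1 lower by the median of all probe sets. The list of NADPH and citrate supply genes had 6 of 7 lower and a median of -0.13, none past 1.2-fold on the brightest probe set. After quantile normalization or loess all 7 were lower, with medians of -0.22 and -0.20. IDH1, the lowest at -0.257, was at -0.264 by the mean of its 2 probe sets past the filter, just past 1.2-fold (0.263). Fatty acid oxidation had 6 of 7 higher with a median of 0.06, but the direction depended on the scaling. After quantile normalization or loess 3 were higher and 4 lower, with medians of -0.06 and -0.04, and after median centring all 7 were higher, with a median of 0.08. In it ACADM, the medium-chain acyl-CoA dehydrogenase, read 690.8 in the knockdown and 571.5 in the control (0.27), with all 6 probe sets past the filter higher, from 0.20 to 0.34, but it fell short of 1.2-fold after quantile normalization (0.16), after loess (0.18) and with a pseudocount of 64 (0.25). The remaining lists, sterol trafficking and other SREBP-linked genes, had medians of -0.05 and 0.003.

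**Figure D4:**
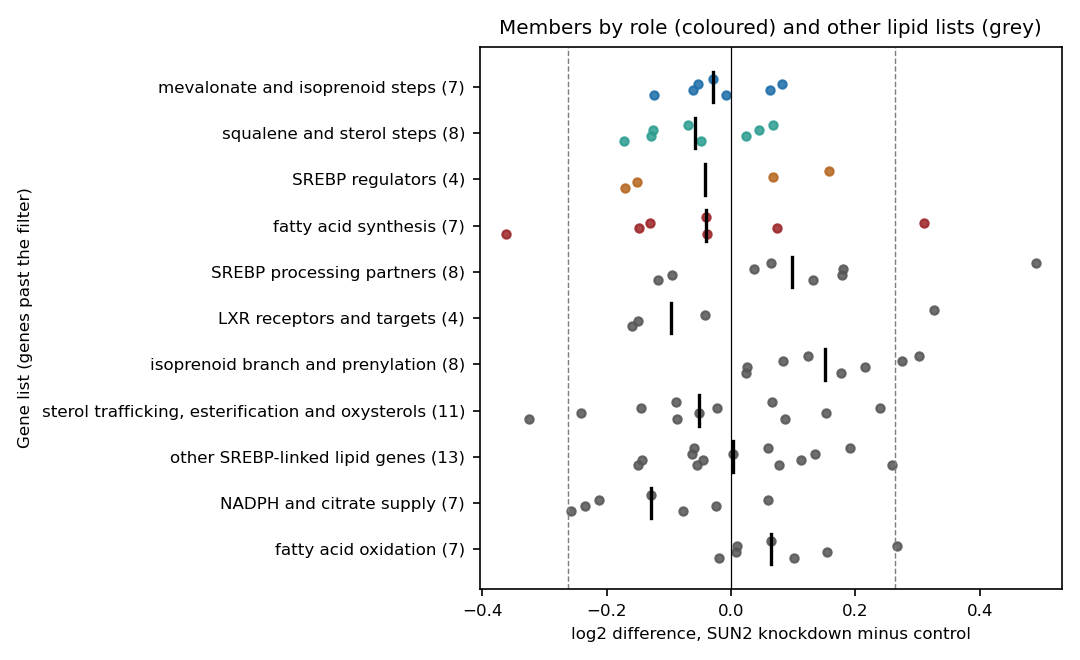
Log2 differences (SUN2 knockdown minus control, horizontal axis) of genes past the filter, 1 point per gene, for 4 role groups of the members (coloured) and 7 other lipid lists (grey), with the number of genes in brackets, medians as black bars and dashed lines at 1.2-fold. The 8 isoprenoid branch genes all lie right of 0, and the sterol and fatty acid groups straddle it with medians just below 0.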

How the data were processed

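Biotinylated cRNA from 100 ng of total RNA was hybridised to Affymetrix arrays, per the labels' protocols. The authors deposited unlogged intensities, 1 per probe set and array. MAS5 and RMA stand in the submitters' processing notes with no role or order, and how the 2 arrays were scaled to each other is not known. The number of arrays limits the precision, since 1 array per group leaves no residual spread and no p-value.

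Of 49395 probe sets, 102 were controls, and of the others 44988 carried 1 gene symbol, updated through the Entrez ID in RefSeq for 44961. A log2(intensity + 16) value was computed from the deposited intensities, and a gene took its brightest probe set. The members and lists were chosen with earlier results of these data known. Values are given for each member past 1.2-fold, the SREBP regulators and the extremes of each role group, and other members are named with their difference. In each other list the genes past 1.2-fold are named. The alternatives were 3 scalings, 2 pseudocounts, normexp (offset 50), 3 rules for probe sets and 2 filters. Quantile, loess and normexp steps used limma 3.58.1 in R 4.3.3. Steps were tested on simulated data.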

Additional observations from a re-analysis of the deposited data

How the results depend on the processing

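No paired analysis was possible because there was 1 array per group. Over 11 alternatives, the median member difference lay between -0.07 and -0.02, and between 6 and 11 members were higher. The number of members past 1.2-fold was 2, and 1 after quantile normalization, 1 with the mean of probe sets past the filter, 1 with the median of all probe sets and 1 without _x_at and _s_at probe sets. The last leaves out SCD, which has only such probe sets, and the other 3 leave out ME1. Without _x_at and _s_at probe sets 21 of the 26 members remained, since FDPS, LSS, TM7SF2 and ACLY also had no other probe set past the filter. The 6 enzymes from acetyl-CoA to farnesyl diphosphate that remained were then all lower, with a median of -0.05. SCD lay between -0.47 (loess) and -0.29 (median of all probe sets), SREBF2 between -0.19 and -0.14, INSIG1 between -0.21 and -0.13, and ME1 between 0.16 and 0.33. SREBF1 lay between -0.01 and 0.18, SCAP between -0.04 and 0.09 and LSS between -0.20 and -0.05. Of 276 values of the 26 members under the alternatives, 14 moved by at least the probe SD of 0.09, in 10 members. In 6 members, ACAT2, ACLY, EBP, HMGCS1, SCAP and SREBF1, at least 1 value took the other sign. ACACA lay between -0.25 and -0.02. Limits of the data are the single array per group, background left in the intensities, and probe sets that may share probes.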
